A study of Mus musculus with 48 samples.

Results

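A set of 10 genes of the fetal liver and of liver progenitor cells is described here across all treatments and times of a study of mouse liver. They were taken from the count table by symbol, as Afp, H19, Igf2, Gpc3, Dlk1, Sox9, Epcam, Prom1, Cd24a and Spink1, and all 10 of 10 were found among 23930 genes listed. Mice received 1 of 3 gapmer antisense oligonucleotides directed against Scarb1, the gene of a receptor for high-density lipoprotein, or the vehicle PBS. Gapmers are chemically modified oligonucleotides with a DNA-like centre that lets RNase H cut the RNA they pair with. The oligonucleotides carry the code names LX-A1656, LX-A2003 and LX-A3928, and livers of each treatment were taken at 24 h, 72 h and 168 h, which are days 1, 3 and 7 after the first administration. That gives 12 groups of 4 libraries, 48 in all. The strain, sex, age and genotype of the mice, the dose, any later doses and the sequences of the oligonucleotides are not stated in the labels. The labels do not say that the 4 replicates of a group are separate animals, so p-values measure spread among libraries that may be technical repeats.

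In rodents, the fetal liver makes a set of products that the adult liver nearly ceases to make. Afp encodes alpha-fetoprotein, the main plasma protein of the fetus, and H19, Igf2 and Dlk1 are imprinted genes of fetal growth that are silenced in the liver after birth. Gpc3, a glypican of the cell surface, follows the same course. In mice the transcription factors Zhx2 and Zbtb20 are known as repressors of Afp after birth, and Zhx2 also of H19 and Gpc3. Sox9, Epcam, Prom1 and Cd24a mark bile duct cells and the progenitor or ductular cells that appear in injured livers, and they are not restricted to them. Spink1 encodes a secreted inhibitor of trypsin, made by the pancreas and by injured or malignant liver.

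The sequences before the starts of Afp, Gpc3 and Dlk1 are shown because at 168 h the levels of these fetal genes were lower under both other oligonucleotides than under LX-A1656. They were taken from RefSeq (GRCm38.p6) and cover the 250 bases before the annotated start, 5′ to 3′ on the strand of the gene. The Afp window is chr5:90490464-90490713 (+ strand), the Gpc3 window chrX:52613975-52614224 (− strand) and the Dlk1 window chr12:109452573-109452822 (+ strand). Capitals mark GTTAAT, the half-site that the liver factor HNF1 recognises, searched on both strands.
Afp: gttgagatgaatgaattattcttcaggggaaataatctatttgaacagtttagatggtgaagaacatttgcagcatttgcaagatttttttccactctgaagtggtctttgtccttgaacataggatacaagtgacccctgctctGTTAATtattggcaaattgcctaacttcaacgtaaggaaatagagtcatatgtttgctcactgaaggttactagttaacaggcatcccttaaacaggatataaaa
Gpc3: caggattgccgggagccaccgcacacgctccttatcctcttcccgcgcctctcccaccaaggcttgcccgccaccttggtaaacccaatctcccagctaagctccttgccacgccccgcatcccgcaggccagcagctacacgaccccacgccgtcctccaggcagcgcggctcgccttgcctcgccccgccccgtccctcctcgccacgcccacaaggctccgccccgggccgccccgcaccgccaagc
Dlk1: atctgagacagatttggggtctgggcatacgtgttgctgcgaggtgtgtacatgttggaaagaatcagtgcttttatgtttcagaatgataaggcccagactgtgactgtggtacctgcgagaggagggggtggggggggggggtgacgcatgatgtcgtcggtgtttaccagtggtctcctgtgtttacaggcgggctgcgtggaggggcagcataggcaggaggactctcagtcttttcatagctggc

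The half-site stood 105 bases before the start of Afp and was in neither of the other windows. It was in 6.43% of 32851 promoter windows of this length. A match to these letters is a description of the sequence and not evidence of binding. RefSeq windows were matched for 6 of the 10 genes. Igf2 and Prom1, also lower under both other oligonucleotides, have windows that are not shown, and none of these held the half-site. The AP-1 site TGANTCA was searched as well and was in 6.75% of the promoter windows. It was in the Prom1 windows and in none of Afp, Gpc3, Dlk1 and Igf2.

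The members lie at separate places in the genome, by the GENCODE annotation of GRCm38, except that H19 at chr7:142575529-142578143 (− strand) and Igf2 at chr7:142650766-142666816 (− strand) are neighbours 72.6 kb apart. Afp lies at chr5:90490737-90508907 (+ strand), Gpc3 at chrX:52272426-52613950 (− strand) and Dlk1 at chr12:109452823-109463336 (+ strand). Sox9 lies at chr11:112782224-112787760 (+ strand), Epcam at chr17:87635979-87651129 (+ strand), Prom1 at chr5:43993620-44102032 (− strand), Cd24a at chr10:43578284-43584265 (+ strand) and Spink1 at chr18:43728082-43737557 (− strand). H19 is a long non-coding RNA and the other 9 encode proteins. The kit counts reads of 1 designed amplicon a gene, and the exon that each amplicon covers is not stated in the labels. Igf2 overlaps the antisense gene Igf2os and Gpc3 overlaps the antisense gene A630012P03Rik, both of them in the table. Since a strand setting is not given either, reads of these pairs may not be told apart. Cd24a has near-identical copies in the mouse genome, so its counts are uncertain to that extent.

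Libraries held 8140065 to 17191129 counts, with a median of 10659453. Levels are CPM, the counts of a gene per 1000000 counts of its library after scaling by TMM factors, and differences are log2 fold changes from edgeR's quasi-likelihood test across all 48 libraries, with Benjamini-Hochberg adjustment over 12672 genes tested. A gene is called when its adjusted p is under 0.05. All 10 members passed the filter on low counts, but Igf2 and Dlk1 did so only through the LX-A1656 libraries at 168 h, where they are high. Their differences between those libraries and others are therefore descriptions without a test, and counts of members at 168 h are over the other 8. Of these, H19 and Prom1 reached the filter's cutoff in fewer than the 4 libraries needed outside treated livers at 168 h. Both are high in those livers. Spink1 reached the cutoff in 16 libraries, which were the LX-A1656 livers at 72 h and the treated livers at 168 h. No PBS library reached it, so counts that include H19, Prom1 or Spink1 are in part set by the filter. Scarb1, the targeted gene, averaged 16.3, 12.5 and 9.32 CPM under LX-A1656, LX-A2003 and LX-A3928 at 168 h, against 319.7 CPM in PBS livers, and was lower at every time with no overlap between groups. The LX-A3928 library of replicate 3 at 168 h stood furthest from its group, with a hepatocyte marker sum of 77693 CPM against 20694 CPM in the lowest library of that group, so member results that rest on it are given with and without it.

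At 168 h all 8 members that passed the filter without the LX-A1656 libraries had changed in LX-A1656 livers, 7 of them upward, while 63.9% of all genes tested were called, 34.1% as higher and 29.7% as lower. Under LX-A2003, 7 members rose, against 55.1% of all genes called, 29.8% as higher and 25.3% as lower. Under LX-A3928, 7 members rose and Sox9 fell, against 48% of all genes called, 27.3% as higher and 20.7% as lower. The 3 comparisons share the PBS libraries, and H19 and Prom1 were tested only through treated livers at 168 h. Spink1 was tested only through treated livers at 72 h and 168 h. Afp, Spink1, Epcam, Prom1, Gpc3, Cd24a and H19 rose under each of the oligonucleotides, though the Cd24a and Gpc3 calls under LX-A3928 were lost in some fits that left out 1 library. Without LX-A3928 replicate 3, 6 members were called against PBS for that oligonucleotide, and without PBS replicate 3 there were 5, all as higher. The shares of all genes called in those fits are not given here. A fit of only the 8 libraries compared called 4 members for LX-A3928, which were Afp, Spink1, Epcam and Prom1, all as higher. It gave no test of H19 and called 28.3% of 11320 genes, against 48% in the fit of all libraries.

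Afp, the plasma protein of the fetus, reached 804, 813, 885 and 1055 CPM in LX-A1656 livers, 75.2, 54.5, 48.1 and 134 CPM in LX-A2003 livers and 26.7, 13.5, 18.4 and 23.2 CPM in LX-A3928 livers, against 0.251, 1.66, 1.08 and 0.635 CPM in PBS livers. The 4 groups were fully separated, in the order LX-A1656, LX-A2003, LX-A3928 and PBS, and the lowest LX-A3928 library was above the highest PBS library. Means were 889 ± 116, 78.1 ± 39.3 and 20.4 ± 5.74 CPM under LX-A1656, LX-A2003 and LX-A3928, against 0.905 ± 0.604 CPM in PBS livers (SD, n = 4 each). Log2 fold changes against PBS were 9.88 ± 0.36 for LX-A1656 (SE, adjusted p = 2.76e-26), 6.37 ± 0.34 for LX-A2003 (adjusted p = 3.15e-20) and 4.44 ± 0.34 for LX-A3928 (adjusted p = 8.69e-15). In these bulk samples a change in the share of cells that express a gene and a change in RNA per cell cannot be told apart. Spink1 was nearly absent without oligonucleotide, with 43.0, 26.1, 35.6 and 73.3 CPM in LX-A1656 livers, 60.2, 98.3, 66.8 and 51.0 CPM in LX-A2003 livers and 32.1, 39.8, 119 and 63.2 CPM in LX-A3928 livers, against 0.126, 0, 0.404 and 0.254 CPM in PBS livers. All treated libraries lay above all PBS libraries, but the 3 oligonucleotides overlapped with each other. Its log2 fold changes were 7.84 ± 0.59, 8.47 ± 0.59 and 8.34 ± 0.59 for LX-A1656, LX-A2003 and LX-A3928, with adjusted p of 2.02e-15, 4.18e-16 and 1.19e-15. The PBS group held 6 counts of Spink1 in all, so these folds have a small base. The gene passed the count filter only through treated livers. Without LX-A3928 replicate 3, the highest library, the LX-A3928 value was 7.86. Summed markers of pancreatic acinar cells, where Spink1 is also made, were 8.90 to 12.3 CPM in LX-A1656 livers, 11.2 to 18.5 CPM in LX-A2003 livers and 13.7 to 40.7 CPM in LX-A3928 livers, against 69.7 to 98.3 CPM in PBS livers, for 10 of 13 listed markers, of which Prss2, Cela2a, Cela3b, Ctrb1, Pnlip, Cel and Reg1 were at 0 in PBS. Most of that sum was Cela1, an elastase gene, which fell by 3.03, 2.87 and 1.99 on the log2 scale under LX-A1656, LX-A2003 and LX-A3928. Cela2a, another elastase gene, was the other acinar marker that passed the filter. It had means of 0.403, 1.64 and 1.71 CPM under LX-A1656, LX-A2003 and LX-A3928, against 0 counts in PBS livers. LX-A1656 and PBS libraries overlapped in it. Cela2a may have passed the count filter only through treated livers at 168 h, so these values are a description without a test. The part of acinar cells in the level of Spink1 was not tested.

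**Figure D1:**
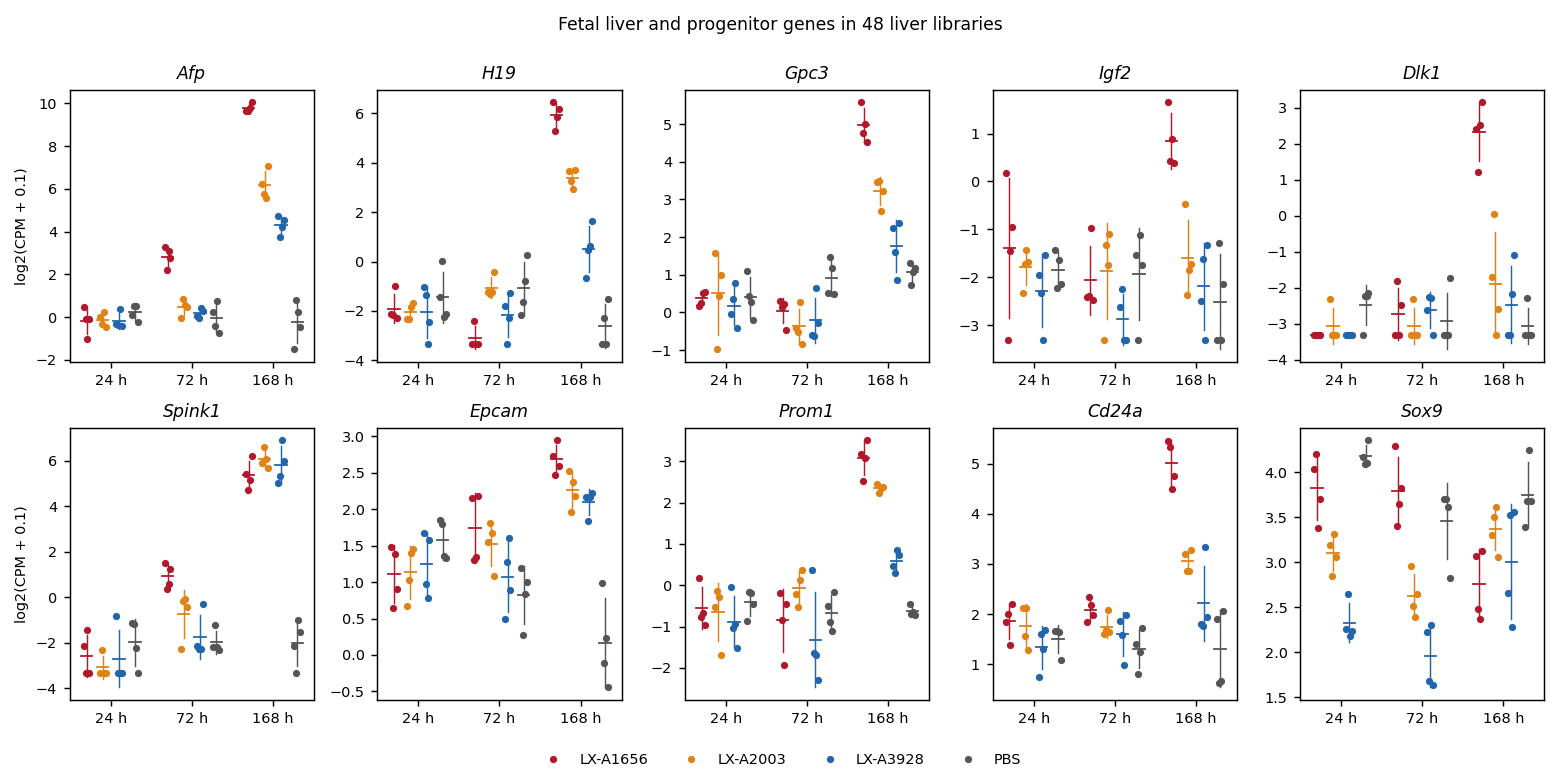
Level of each of the 10 genes in every library, as log2(CPM + 0.1) on the vertical axis, at 24 h, 72 h and 168 h on the horizontal axis. Points are single libraries, the horizontal line is the mean of 4 and the vertical line its SD, with LX-A1656, LX-A2003, LX-A3928 and PBS from left to right at each time. Afp stands at 804 to 1055 CPM in LX-A1656 livers at 168 h, against 0.251 to 1.66 CPM in PBS livers, and most treated groups are near PBS at 24 h.

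H19 is the non-coding RNA expressed from the maternal allele beside Igf2, and its level was 86.8, 38.8, 58.0 and 72.0 CPM in LX-A1656 livers, 12.6, 9.38, 7.58 and 13.0 CPM in LX-A2003 livers and 0.530, 1.28, 1.46 and 2.98 CPM in LX-A3928 livers, against 0, 0.103, 0 and 0.254 CPM in PBS livers. Every oligonucleotide group lay above PBS and no groups overlapped. The PBS group held 3 counts of H19 in total, so the change is given as a ratio of group counts over scaled group depths, with an exact interval for counting error alone. It was 680.5 (95% interval 233 to 3302) for LX-A1656 with 3707 counts, 120.3 (95% interval 41.0 to 585) for LX-A2003 with 563 counts and 17.4 (95% interval 5.72 to 86.0) for LX-A3928 with 76 counts. edgeR called all 3, with adjusted p of 5.01e-19, 3.62e-13 and 1.82e-05 for LX-A1656, LX-A2003 and LX-A3928. Igf2, the insulin-like growth factor of fetal life, reached 3.04, 1.25, 1.75 and 1.21 CPM in LX-A1656 livers, 0.621, 0.0929, 0.178 and 0.202 CPM in LX-A2003 livers and 0.0758, 0.226, 0 and 0.298 CPM in LX-A3928 livers, against 0, 0.310, 0 and 0.127 CPM in PBS livers. Only LX-A1656 livers stood apart from PBS, and these are few reads, 107, 15 and 8 counts in the LX-A1656, LX-A2003 and LX-A3928 groups and 4 in the PBS group. The log2 difference of Igf2 between LX-A1656 and PBS livers was 3.79, given as a description. Under LX-A2003 the log2 fold change was 1.18 with a 95% interval of -0.64 to 3.00 (adjusted p = 0.271), and under LX-A3928 0.41 with an interval of -1.58 to 2.41 (adjusted p = 0.756). Dlk1, a membrane protein of the Notch ligand family found in fetal hepatoblasts, had 5.27, 2.21, 5.61 and 8.77 CPM in LX-A1656 livers, 0.207, 0.929, 0 and 0.0672 CPM in LX-A2003 livers and 0, 0, 0.122 and 0.373 CPM in LX-A3928 livers, against 0, 0.103, 0 and 0 CPM in PBS livers. Each LX-A1656 library lay above each other library at this time, while LX-A2003 and LX-A3928 libraries overlapped with PBS. With 313, 14 and 6 counts in the LX-A1656, LX-A2003 and LX-A3928 groups and 1 in the PBS group, the ratio to PBS was 172 (95% interval 30.7 to 6830.2) for LX-A1656, 8.98 (95% interval 1.37 to 379.5) for LX-A2003 and 4.11 (95% interval 0.498 to 189) for LX-A3928. Its adjusted p was 0.0628 under LX-A2003 and 0.354 under LX-A3928, and the LX-A2003 value was 0.043 with DESeq2 and 0.0298, 0.0335 and 0.043 in edgeR without LX-A2003 replicate 3, LX-A2003 replicate 4 or PBS replicate 2. The other 5 fits that left out 1 library gave 0.0657 to 0.437, the last of these without LX-A2003 replicate 2, which held 10 of the 14 LX-A2003 counts.

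Gpc3, the fetal glypican of the cell surface, had 47.5, 26.9, 32.1 and 22.8 CPM in LX-A1656 livers, 10.8, 11.2, 6.33 and 9.27 CPM in LX-A2003 livers and 4.62, 2.94, 1.70 and 5.07 CPM in LX-A3928 livers, against 2.39, 1.55, 2.02 and 2.16 CPM in PBS livers. LX-A1656 and LX-A2003 livers lay above PBS without overlap, while the LX-A3928 and PBS ranges crossed. Gpc3 rose by 3.99 ± 0.35 under LX-A1656 (SE, log2 scale, adjusted p = 7.84e-14) and by 2.21 ± 0.34 under LX-A2003 (adjusted p = 4.22e-07). The LX-A3928 value of 0.85 ± 0.35 was close to the threshold (adjusted p = 0.0427). Without LX-A3928 replicate 3 it was 1.06 (adjusted p = 0.0107), and it missed the threshold without LX-A3928 replicate 1 or 4 or without PBS replicate 2, 3 or 4, at adjusted p of 0.0631 to 0.158 and log2 values of 0.64 to 0.88. Epcam, an adhesion molecule of epithelia that in the adult liver is largely confined to bile ducts, had 6.53, 5.43, 7.59 and 5.95 CPM in LX-A1656 livers, 5.66, 3.81, 5.08 and 4.43 CPM in LX-A2003 livers and 4.39, 3.47, 4.38 and 4.55 CPM in LX-A3928 livers, against 1.89, 0.828, 1.08 and 0.635 CPM in PBS livers. All treated libraries were above all PBS libraries. LX-A2003 livers overlapped with both other oligonucleotides, while all LX-A1656 libraries lay above all LX-A3928 libraries. Its log2 fold changes were 2.53 ± 0.30, 2.10 ± 0.31 and 1.92 ± 0.31 for LX-A1656, LX-A2003 and LX-A3928 (adjusted p = 7.92e-10, 1.3e-07 and 1.29e-06). Prom1, the membrane glycoprotein prominin 1 of stem and duct cells, had 8.98, 5.67, 8.41 and 11.3 CPM in LX-A1656 livers, 5.38, 4.64, 4.99 and 5.11 CPM in LX-A2003 livers and 1.29, 1.13, 1.70 and 1.57 CPM in LX-A3928 livers, against 0.628, 0.517, 0.538 and 0.508 CPM in PBS livers. No group overlapped with another in Prom1. The PBS libraries held 5, 5, 4 and 4 counts of it and the LX-A3928 libraries 17, 15, 14 and 21. Both levels, and the small spread within PBS, therefore rest on few reads. The log2 fold changes of Prom1 were 3.94 ± 0.40, 3.18 ± 0.40 and 1.35 ± 0.44 for LX-A1656, LX-A2003 and LX-A3928 (adjusted p = 9.26e-12, 6.55e-09 and 0.0102).

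Cd24a, a small glycoprotein on the surface of progenitor and immune cells, had 43.4, 40.0, 22.3 and 26.8 CPM in LX-A1656 livers, 9.11, 7.15, 7.13 and 9.61 CPM in LX-A2003 livers and 3.41, 3.32, 9.98 and 3.73 CPM in LX-A3928 livers, against 3.64, 1.45, 1.48 and 4.06 CPM in PBS livers. LX-A1656 and LX-A2003 livers were above PBS without overlap, and within LX-A3928 replicate 3 alone exceeded the PBS range. That library also had the highest neutrophil marker sum of its group, at 44.1 CPM, against 7.65, 11.4 and 13.7 CPM in replicates 1, 2 and 4. Cd24a rose by 3.64 ± 0.32 under LX-A1656 (SE, log2 scale, adjusted p = 9.38e-14) and by 1.64 ± 0.31 under LX-A2003 (adjusted p = 1.97e-05). Under LX-A3928 it was called at 0.91 ± 0.32 (adjusted p = 0.0179). The call was lost at 0.40 without LX-A3928 replicate 3 (adjusted p = 0.28), at 0.69 without PBS replicate 2 (adjusted p = 0.097) and at 0.72 without PBS replicate 3 (adjusted p = 0.0806). Sox9, the transcription factor that marks biliary and progenitor cells, went the other way, with 8.31, 5.49, 5.08 and 8.61 CPM in LX-A1656 livers, 9.80, 11.2, 12.1 and 8.26 CPM in LX-A2003 livers and 6.21, 11.5, 4.75 and 11.7 CPM in LX-A3928 livers, against 10.4, 12.7, 19.0 and 12.7 CPM in PBS livers. The LX-A1656 libraries were all below the PBS libraries, while those of LX-A2003 and LX-A3928 crossed with PBS. Sox9 fell by 1.00 ± 0.24 on the log2 scale under LX-A1656 (adjusted p = 0.00038) and by 0.67 ± 0.24 under LX-A3928 (adjusted p = 0.0197). For LX-A2003 the difference was -0.41 with a 95% interval of -0.89 to 0.07 (adjusted p = 0.147). The LX-A3928 call was lost without LX-A3928 replicate 1 (-0.54, adjusted p = 0.0822), without its replicate 3 (-0.48, adjusted p = 0.0947) and without PBS replicate 3 (-0.47, adjusted p = 0.124). With library totals in place of TMM factors, a scaling that raised the median of all genes by 0.47 for LX-A1656 and by 0.30 for LX-A3928, Sox9 stood at -0.54 for LX-A1656 (adjusted p = 0.0555) and at -0.33 for LX-A3928 (adjusted p = 0.276), and neither was called.

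**Figure D2:**
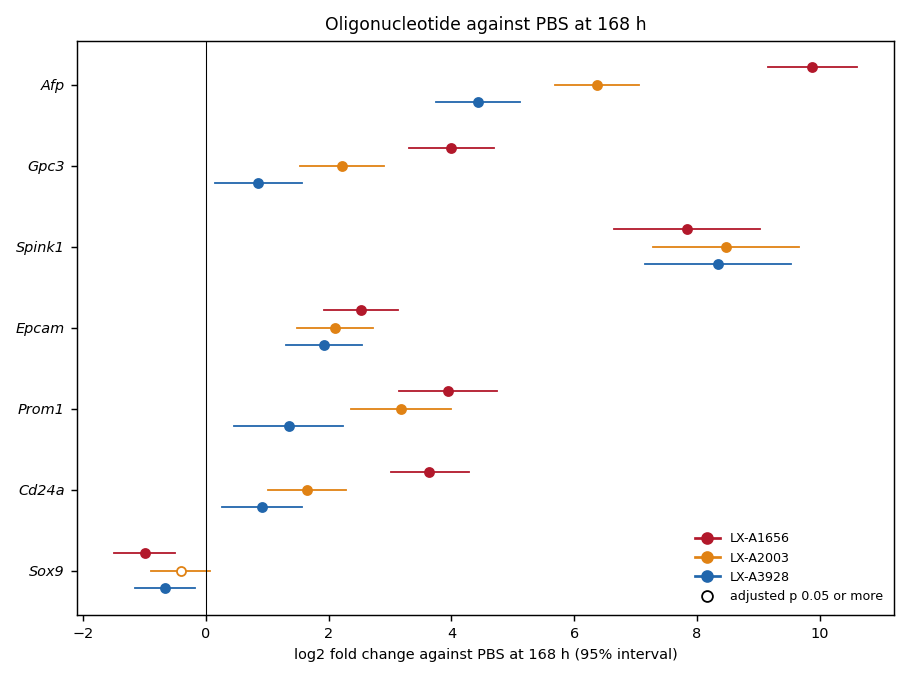
Log2 fold change against PBS at 168 h (horizontal axis) for 7 of the 10 genes, with H19 and Dlk1 left out because their PBS groups held 3 counts and 1 count, and Igf2 because it was tested only through the LX-A1656 libraries. Points are edgeR estimates and bars their 95% intervals, for LX-A1656, LX-A2003 and LX-A3928 from top to bottom within a gene, and open points have an adjusted p of 0.05 or more. Afp runs at 9.88, 6.37 and 4.44 while the intervals of Spink1 and of Epcam lie over one another, and Sox9 is left of 0.

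Markers of several liver cell types moved at 168 h beside these genes, and their part in the changes above was not tested. The summed level of all 20 of 20 listed bile duct and ductular markers was 724 to 927 CPM in LX-A1656 livers, 605 to 662 CPM in LX-A2003 livers and 494 to 543 CPM in LX-A3928 livers, against 362 to 391 CPM in PBS livers. The groups did not overlap and stood in the order of Afp, H19, Gpc3 and Prom1. Of the duct markers Pkhd1 was at 0 in all groups, and Sctr was at 0 in LX-A2003 and PBS livers. Among 16 duct markers tested, 10 rose and 1 fell under LX-A1656, 9 rose and 1 fell under LX-A2003, and 8 rose and 1 fell under LX-A3928, with median log2 fold changes of 1.47, 1.26 and 0.86 beside 0.10, 0.04 and 0.08 over all genes. Cldn4, a tight junction protein, changed most by p in each, at 8.73, 7.71 and 6.42 on the log2 scale for LX-A1656, LX-A2003 and LX-A3928. The duct marker Mmp7 had 1 count in the PBS group and a mean of 24.2 CPM under LX-A1656. Such genes may have passed the count filter only through treated livers. The counts and medians of marker lists may therefore be in part set by the filter. Hepatocyte markers, for 4 of 6 listed, summed to 21000.3 to 34129 CPM in LX-A1656 livers, 22470.1 to 27974 CPM in LX-A2003 livers and 20694 to 77693 CPM in LX-A3928 livers, against 49658 to 67854 CPM in PBS livers, and Alb, the albumin gene of hepatocytes, led them in every group. LX-A3928 replicate 3 stood above every PBS library in this sum, and the other LX-A3928 libraries stood below every one. Macrophage markers, for 9 of 10 listed, summed to 1067 to 1622 CPM in LX-A1656 livers, 796 to 1059 CPM in LX-A2003 livers and 557 to 669 CPM in LX-A3928 livers, against 205 to 268 CPM in PBS livers. Stellate cell and fibroblast markers, for 10 of 10 listed, summed to 1569 to 2061 CPM in LX-A1656 livers, 978 to 1586 CPM in LX-A2003 livers and 887 to 1730.4 CPM in LX-A3928 livers, against 494 to 526 CPM in PBS livers. None of the hepatocyte, macrophage and stellate cell markers in the table was at 0 in a whole group. Macrophage and stellate sums were higher in every treated library than in every PBS library, and the macrophage sums stood in the same order of oligonucleotides as Afp, without overlap. Erythroid markers, of the blood formation that the fetal liver hosts, summed to 29.2 to 42.0 CPM in LX-A1656 livers, 82.6 to 128 CPM in LX-A2003 livers and 143 to 201 CPM in LX-A3928 livers, against 390.0 to 501 CPM in PBS livers, for 6 of 12 listed, with none at 0. Most of that sum was Alas2, with means of 28.0, 99.9, 143 and 392 CPM under LX-A1656, LX-A2003, LX-A3928 and PBS. Of 5 erythroid markers tested, 2, 2 and 3 fell under LX-A1656, LX-A2003 and LX-A3928, and none rose. The sums ran in the opposite order to Afp. Neutrophil markers, for 10 of 10 listed, summed to 16.6 to 38.2 CPM in LX-A1656 livers, 9.00 to 15.1 CPM in LX-A2003 livers and 7.65 to 44.1 CPM in LX-A3928 livers, against 4.14 to 6.03 CPM in PBS livers, with Ly6g and Mpo at 0 in PBS. Every treated library was above every PBS library in that sum, and of 4 neutrophil markers tested 4, 1 and 3 rose under LX-A1656, LX-A2003 and LX-A3928. Sinusoidal endothelial markers, for 8 of 8 listed, summed to 137 to 169 CPM in LX-A1656 livers, 159.6 to 187 CPM in LX-A2003 livers and 179 to 249 CPM in LX-A3928 livers, against 347 to 363 CPM in PBS livers, below PBS in every treated library, with none at 0. Single markers went both ways. Of 8 tested, 2 rose and 5 fell under each of LX-A1656 and LX-A2003, and 3 rose and 5 fell under LX-A3928. B cell markers, for 5 of 7 listed, summed to 3.10 to 7.27 CPM in LX-A1656 livers, 2.42 to 4.18 CPM in LX-A2003 livers and 3.56 to 4.22 CPM in LX-A3928 livers, against 2.96 to 5.33 CPM in PBS livers, with none at 0, and mesothelial markers, for 8 of 8 listed, to 7.28 to 14.1 CPM in LX-A1656 livers, 4.70 to 19.1 CPM in LX-A2003 livers and 6.70 to 9.70 CPM in LX-A3928 livers, against 6.86 to 15.1 CPM in PBS livers, with Muc16 at 0 in LX-A1656 livers. The groups overlapped with PBS in both of these sums. For the duct, erythroid, neutrophil and sinusoidal endothelial counts, the shares of all genes called as higher and as lower are those given above for 168 h.

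The oligonucleotides were next compared with each other at 168 h, over 3 pairs, in the same fit. LX-A2003 livers were lower than LX-A1656 livers in 5 of the 8 genes, against 32.1% of all genes called and 13.8% called as lower. LX-A3928 livers were lower than LX-A1656 livers in 5, against 41.7% of all genes called and 18.5% as lower. LX-A3928 livers were lower than LX-A2003 livers in 4, against 8.1% of all genes called and 2.77% as lower. Each pair of these comparisons shares 1 treated group.

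Afp had the smallest p in each pair of oligonucleotides among the members, at -3.51 ± 0.25 for LX-A2003 over LX-A1656 (SE, log2 scale, adjusted p = 1.01e-14) and -5.44 ± 0.28 for LX-A3928 over LX-A1656 (adjusted p = 6.93e-20). LX-A3928 over LX-A2003 gave -1.93 ± 0.24 (adjusted p = 1.16e-06), which became -1.89 at an adjusted p of 0.0769 when only those 8 libraries were fitted. As a share of the LX-A1656 mean, Afp stood at 8.79% in LX-A2003 livers, 2.30% in LX-A3928 livers and 0.102% in PBS livers. For H19 those shares were 16.7%, 2.45% and 0.140%, for Gpc3 29.1%, 11.1% and 6.28%, and for Prom1 58.6%, 16.6% and 6.39%, in LX-A2003, LX-A3928 and PBS livers in turn. H19 differed by -2.58 between LX-A2003 and LX-A1656 (log2, adjusted p = 1.63e-08), by -5.33 between LX-A3928 and LX-A1656 (adjusted p = 2.37e-15) and by -2.76 between LX-A3928 and LX-A2003 (adjusted p = 1.9e-06). Gpc3 differed by -1.78, -3.14 and -1.36 in the same 3 pairs (adjusted p = 5.5e-06, 4.51e-11 and 0.00429), and the last became -1.34 at an adjusted p of 0.213 when only those 8 libraries were fitted. Prom1 differed by -2.59 between LX-A3928 and LX-A1656 (adjusted p = 2.92e-08) and by -1.83 between LX-A3928 and LX-A2003 (adjusted p = 0.000491). The Prom1 difference between LX-A2003 and LX-A1656 was -0.76 at an adjusted p of 0.0487, and it missed the threshold without any 1 of 7 of the 8 libraries, at adjusted p of 0.0685 to 0.155. LX-A1656 replicate 2 was the exception.

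The low-count genes Igf2 and Dlk1 are described without a test, with log2 differences for Igf2 of -2.61 for LX-A2003 over LX-A1656 and -3.38 for LX-A3928 over LX-A1656, and for Dlk1 of -4.22 and -5.32 in those 2 pairs. In the same pairs Cd24a differed by -2.00 (adjusted p = 2.21e-07) and -2.74 (adjusted p = 2.12e-10). Between LX-A3928 and LX-A2003 the Cd24a difference was -0.74 with a 95% interval of -1.32 to -0.15 (adjusted p = 0.109), and without LX-A3928 replicate 3 it was called at -1.24 (adjusted p = 0.00634). Spink1 was not called in any pair at 168 h. Its difference was 0.63 for LX-A2003 over LX-A1656 (95% interval -0.04 to 1.31), 0.51 for LX-A3928 over LX-A1656 (-0.16 to 1.18) and -0.13 for LX-A3928 over LX-A2003 (-0.79 to 0.54). Without LX-A1656 replicate 4, the highest of its group, the first 2 differences became 0.98 (adjusted p = 0.0293) and 0.86 (adjusted p = 0.0469). Without LX-A3928 replicate 3, the difference of LX-A3928 over LX-A1656 was 0.02 (adjusted p = 0.963). As a percentage of the LX-A1656 mean, Spink1 averaged 155% in LX-A2003 livers and 142% in LX-A3928 livers, where the libraries stood at 72.0, 89.4, 267 and 142%, with replicate 3 the highest.

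Epcam was likewise not called between oligonucleotides, at -0.42 for LX-A2003 over LX-A1656 (-0.93 to 0.08), -0.60 for LX-A3928 over LX-A1656 (-1.11 to -0.09) and -0.18 for LX-A3928 over LX-A2003 (-0.70 to 0.34). The middle difference lay beside the threshold (adjusted p = 0.0509) and passed it without LX-A1656 replicate 2 (-0.67, adjusted p = 0.0482) and in DESeq2 (adjusted p = 0.0264). Epcam stood at 74.4% and 65.8% of the LX-A1656 mean in LX-A2003 and LX-A3928 livers, and at 17.4% in PBS livers. Sox9 differed by 0.60 for LX-A2003 over LX-A1656 (0.11 to 1.08, adjusted p = 0.052) and by 0.33 for LX-A3928 over LX-A1656 (-0.15 to 0.82, adjusted p = 0.272). The first of these passed the threshold without LX-A1656 replicate 1 (0.70, adjusted p = 0.0388), LX-A1656 replicate 4 (0.72, adjusted p = 0.0304) or LX-A2003 replicate 4 (0.69, adjusted p = 0.0299). A difference that was not called does not show that 2 oligonucleotides act alike. The labels do not say whether doses were matched.

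**Figure D3:**
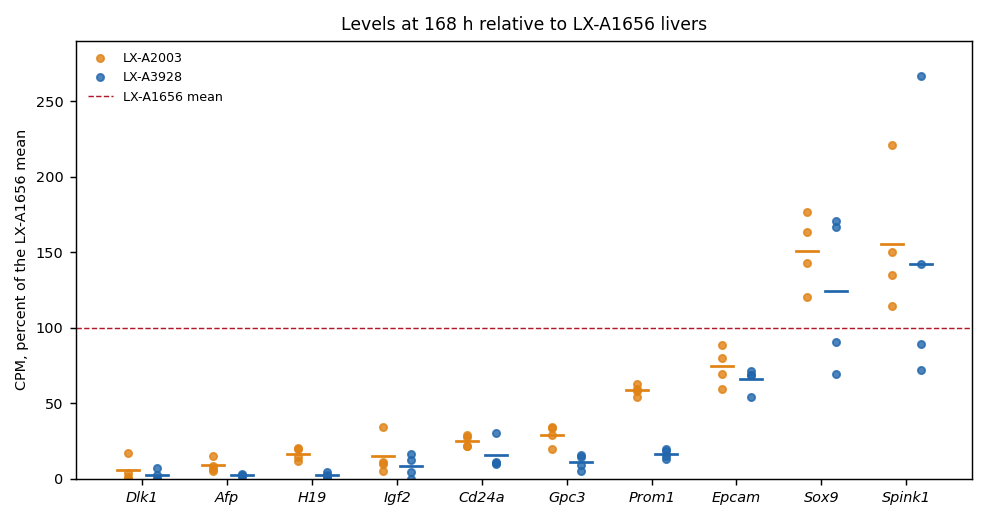
Level of each gene at 168 h as a percentage of the LX-A1656 mean, on a linear axis, with 1 point per library of LX-A2003 and LX-A3928 and a dashed line at 100%. Afp averages 8.79% under LX-A2003 and 2.30% under LX-A3928, while Spink1 averages 155% and 142% and Sox9 151% and 124%.

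At 72 h 6 of the 10 members were called in LX-A1656 livers, 4 as higher and 2 as lower, a share near that of all genes, of which 48.2% were called, 24.7% as higher and 23.4% as lower. Afp had 9.47, 4.46, 8.33 and 6.71 CPM in LX-A1656 livers, against 1.10, 0.663, 1.56 and 0.498 CPM in PBS livers, a log2 fold change of 2.94 ± 0.35 (SE, adjusted p = 1.68e-09). Spink1 had 2.78, 1.18, 1.39 and 2.29 CPM in LX-A1656 livers, against 0.122, 0.331, 0.120 and 0.0997 CPM in PBS livers (3.42 ± 0.75, adjusted p = 0.000181). The groups were separated in both genes, at levels far under those of 168 h. Spink1 passed the count filter only through treated livers, these LX-A1656 livers among them. Epcam had 4.34, 2.36, 2.45 and 4.42 CPM in LX-A1656 livers, against 2.19, 1.10, 1.68 and 1.89 CPM in PBS livers (0.98 ± 0.29, adjusted p = 0.00436). Cd24a stood at 4.19 ± 0.664 CPM in LX-A1656 livers, against 2.42 ± 0.636 CPM in PBS livers (SD, n = 4 each, log2 fold change 0.78 ± 0.32, adjusted p = 0.0425). A pair of genes that were high under LX-A1656 at 168 h were low at 72 h. Gpc3 had 1.13, 1.00, 1.06 and 0.631 CPM in LX-A1656 livers, against 1.34, 2.65, 2.17 and 1.30 CPM in PBS livers (-0.96 ± 0.41, adjusted p = 0.0471), and H19 had 1 count in the LX-A1656 group, against 18 in the PBS group, a ratio of 0.0417 (95% interval 0.00100 to 0.264) with an adjusted p of 0.00168. None of these 6 overlapped with PBS, and the share of all genes separated in this way is not given here. The Gpc3 and Cd24a calls were each lost in 6 of the 8 fits that left out 1 library. The H19 call was kept in all 8, but PBS replicate 4 held 11 of the 18 PBS counts. Gpc3 was lost without any LX-A1656 replicate or without PBS replicate 2 or 3 (log2 -1.05 to -0.73, adjusted p = 0.0547 to 0.181), and Cd24a without LX-A1656 replicate 2, 3 or 4 or PBS replicate 1, 2 or 3 (0.63 to 0.82, adjusted p = 0.0514 to 0.138). Igf2, Dlk1, Prom1 and Sox9 were not called under LX-A1656 at 72 h.

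Under LX-A2003 at 72 h, 2 members were called, both as lower, against 12% of all genes called and 6.55% as lower. Gpc3 had 0.650, 0.600, 1.12 and 0.460 CPM in LX-A2003 livers, against the PBS values above (-1.33 ± 0.42, adjusted p = 0.03). The Gpc3 call was lost without LX-A2003 replicate 1, 2 or 4 or PBS replicate 2 or 3, at log2 values of -1.28 to -1.10 and adjusted p of 0.0679 to 0.141. Sox9 was the other, and without LX-A2003 replicate 3 its value was -0.79 (adjusted p = 0.0588). Under LX-A3928 Sox9 was the only member called, against 9.8% of all genes. Gpc3 passed too without LX-A3928 replicate 3 (-1.59, adjusted p = 0.024) or PBS replicate 4 (-1.34, adjusted p = 0.0498). Afp was not called under either, with 0.866, 1.70, 1.38 and 1.29 CPM in LX-A2003 livers and 0.936, 0.885, 1.26 and 1.14 CPM in LX-A3928 livers. Between oligonucleotides at 72 h, 4 members were called for LX-A2003 over LX-A1656, against 35.9% of all genes and 18% as lower. Afp (-2.45, adjusted p = 2.73e-08), Spink1 (-1.58, 0.0197) and Sox9 (-1.21, 9.89e-05) were lower in LX-A2003 livers, and H19 was higher, with 18 counts in the LX-A2003 group against 1 in the LX-A1656 group. Spink1 missed the threshold in that pair without LX-A1656 replicate 1 (-1.36, adjusted p = 0.0808) or LX-A2003 replicate 1 (-1.30, adjusted p = 0.0715). For LX-A3928 over LX-A1656, 4 were called, all as lower, against 40.6% of all genes and 20.1% as lower. They were Afp (-2.78, adjusted p = 2.94e-09), Spink1 (-2.87, 0.000428), Sox9 (-1.85, 6.87e-08) and Epcam (-0.73, 0.0328). Epcam missed the threshold there without LX-A1656 replicate 1 or 4 or LX-A3928 replicate 1 or 4, at -0.67 to -0.54 and adjusted p of 0.0791 to 0.158. Between LX-A3928 and LX-A2003 edgeR called 0 members, with 1 at an unadjusted p under 0.05 and 0 in DESeq2, against 0.718% of all genes, and without LX-A3928 replicate 1 it called Prom1 (-2.26, adjusted p = 0.0251).

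Sox9 was the one member that differed from PBS at 24 h, and it did so under LX-A2003 and LX-A3928. Its level then was 16.4, 18.3, 10.3 and 12.9 CPM in LX-A1656 livers, 9.06, 7.12, 9.85 and 8.25 CPM in LX-A2003 livers and 4.66, 6.16, 4.43 and 4.59 CPM in LX-A3928 livers, against 18.0, 16.9, 17.1 and 20.4 CPM in PBS livers. LX-A2003 and LX-A3928 livers were all below PBS and did not overlap with each other, while LX-A1656 crossed with PBS. Sox9 fell by 1.07 ± 0.24 on the log2 scale under LX-A2003 (adjusted p = 0.0067) and by 1.87 ± 0.25 under LX-A3928 (adjusted p = 1.56e-06), and its difference under LX-A1656 was -0.32 ± 0.24 (adjusted p = 0.676). That is 1 member called under each of LX-A2003 and LX-A3928, against 2.09% and 3.26% of all genes. For LX-A1656 edgeR called 0 members, with 0 at an unadjusted p under 0.05 and 0 in DESeq2, against 2.86% of all genes. At 72 h Sox9 had 19.6, 10.5, 12.4 and 14.0 CPM in LX-A1656 livers, 7.69, 5.60, 5.13 and 6.17 CPM in LX-A2003 livers and 4.55, 3.10, 4.84 and 3.00 CPM in LX-A3928 livers, against 12.9, 12.9, 12.2 and 6.98 CPM in PBS livers. LX-A3928 livers remained below all PBS livers (-1.52 ± 0.26, adjusted p = 2.96e-05), LX-A2003 livers overlapped with PBS through PBS replicate 4 (-0.87 ± 0.25, adjusted p = 0.0124), and LX-A1656 was not called (0.33 ± 0.24, adjusted p = 0.255). Between oligonucleotides at 24 h, Sox9 was lower in LX-A3928 than in LX-A1656 livers, with a log2 difference of -1.55 (adjusted p = 9.42e-05), the only member called in that pair, against 2.9% of all genes. The other 2 pairs at 24 h had 0 members called by edgeR, with 1 each at an unadjusted p under 0.05 and 0 each in DESeq2, against 0.284% of all genes for LX-A2003 over LX-A1656 and 0.15% for LX-A3928 over LX-A2003. Duct marker sums at 24 h were 374 to 419.6 CPM under LX-A1656, 380.4 to 426 CPM under LX-A2003 and 389.6 to 426 CPM under LX-A3928, against 344 to 363 CPM in PBS livers, and their part in the Sox9 level was not tested. Onecut2, a liver and duct transcription factor, led that sum, with means of 124, 145 and 166 CPM under LX-A1656, LX-A2003 and LX-A3928, against 112 CPM in PBS livers.

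None of the remaining members was called at 24 h. Afp means at 24 h were 0.843 ± 0.363, 0.832 ± 0.201 and 0.811 ± 0.255 CPM under LX-A1656, LX-A2003 and LX-A3928, against 1.11 ± 0.286 CPM in PBS livers (SD, n = 4 each), and Spink1, Dlk1, H19 and Igf2 had at most 14 counts in any group of 4 libraries. Gpc3 averaged 1.20 ± 0.161, 1.62 ± 1.05 and 1.08 ± 0.417 CPM under LX-A1656, LX-A2003 and LX-A3928, against 1.30 ± 0.551 CPM in PBS livers. Prom1 averaged 0.616 ± 0.280, 0.586 ± 0.265 and 0.483 ± 0.269 CPM under LX-A1656, LX-A2003 and LX-A3928, against 0.664 ± 0.160 CPM in PBS livers. All groups overlapped with PBS in these genes. Epcam averaged 2.11 ± 0.593, 2.15 ± 0.537 and 2.36 ± 0.728 CPM under LX-A1656, LX-A2003 and LX-A3928, against 2.94 ± 0.585 CPM in PBS livers at 24 h, and Cd24a 3.59 ± 0.822, 3.43 ± 0.991 and 2.50 ± 0.690 CPM under LX-A1656, LX-A2003 and LX-A3928, against 2.79 ± 0.500 CPM in PBS livers. At 72 h, where Prom1 was not called for any oligonucleotide, its means were 0.508 ± 0.266, 0.885 ± 0.261 and 0.430 ± 0.506 CPM under LX-A1656, LX-A2003 and LX-A3928, against 0.552 ± 0.193 CPM in PBS livers, and among LX-A3928 livers replicate 1 was the highest at 1.19 CPM. Igf2 and Dlk1 gave few counts at 72 h, with 8, 10 and 2 counts of Igf2 in the LX-A1656, LX-A2003 and LX-A3928 groups, against 7 in PBS, and 3, 1 and 3 of Dlk1, against 2 in PBS.

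Effects at 168 h were tested against those at 24 h and 72 h for each oligonucleotide. Compared with 24 h, the effect had changed in 7 of the 8 members under LX-A1656, 7 under LX-A2003 and 6 under LX-A3928, all of them upward, against 47%, 38.5% and 32.4% of all genes called and 23.2%, 20% and 17.4% called upward. Compared with 72 h, it had changed in 8 members under LX-A1656, 7 of them upward, in 7 under LX-A2003 and in 5 under LX-A3928, all upward, against 30.1%, 29.7% and 23% of all genes called and 14%, 15.9% and 12.5% called upward. Afp, Epcam, H19 and Spink1 were among them in all 6 tests. Sox9 went upward under LX-A3928 from 24 h (its effect was less negative by 1.20, adjusted p = 0.00581) and downward under LX-A1656 from 72 h (-1.33, adjusted p = 0.00213). In PBS livers edgeR called 0 members between 72 h and 24 h, with 2 at an unadjusted p under 0.05 and 0 in DESeq2, against 0.0789% of all genes. Between 168 h and 24 h it called Epcam alone, against 1.03% of all genes, with 1.89, 0.828, 1.08 and 0.635 CPM at 168 h and 3.50, 3.39, 2.45 and 2.42 CPM at 24 h (-1.42 ± 0.32, adjusted p = 0.0141). The Epcam call between PBS times was lost without PBS replicate 1 or 2 at 24 h or PBS replicate 2 or 4 at 168 h, at -1.35 to -1.23 and adjusted p of 0.0544 to 0.0737. The Epcam rise against PBS at 168 h is measured from a PBS group that is itself low among PBS times.

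Zhx2 and Zbtb20, the known repressors of Afp, both fell under each of the oligonucleotides at 168 h. Zhx2, a homeobox factor, had 3.12, 4.00, 4.67 and 1.85 CPM in LX-A1656 livers, 11.9, 11.8, 13.0 and 11.1 CPM in LX-A2003 livers and 11.2, 18.1, 5.72 and 12.3 CPM in LX-A3928 livers, against 26.8, 28.9, 31.6 and 29.7 CPM in PBS livers at 168 h. Its libraries stood with LX-A1656 at the bottom, LX-A2003 and LX-A3928 together above it, and PBS at the top. Zhx2 fell by 3.08 ± 0.22, 1.29 ± 0.20 and 1.29 ± 0.20 on the log2 scale under LX-A1656, LX-A2003 and LX-A3928 (adjusted p = 2.84e-16, 7.25e-07 and 1.03e-06). Zbtb20, a zinc finger factor, had 24.3, 16.1, 18.9 and 9.90 CPM in LX-A1656 livers, 37.2, 26.9, 47.1 and 48.0 CPM in LX-A2003 livers and 39.3, 32.8, 21.4 and 27.8 CPM in LX-A3928 livers, against 61.5, 125, 63.8 and 95.3 CPM in PBS livers. All treated libraries were below all PBS libraries in it as well, with log2 fold changes of -2.32 ± 0.25, -1.12 ± 0.24 and -1.51 ± 0.24 for LX-A1656, LX-A2003 and LX-A3928 (adjusted p = 6.37e-11, 0.000119 and 1.62e-06). Zfhx3, another large factor known to repress Afp, was not called in any of the 9 comparisons with PBS, and at 168 h it stood at -0.57, 0.08 and -0.29 (adjusted p = 0.0588, 0.806 and 0.38). At 72 h Zbtb20 was already called as lower under all 3, at -1.79, -1.48 and -0.85, and Zhx2 under LX-A1656 and LX-A2003, at -1.14 (adjusted p = 8.74e-06) and -0.67 (adjusted p = 0.0201). Afp was not called under LX-A2003 and LX-A3928 at 72 h, and a missing call does not show that its level was unchanged. Between oligonucleotides at 168 h, Zhx2 was higher than under LX-A1656 by 1.79 in LX-A2003 livers and by 1.79 in LX-A3928 livers (adjusted p = 1.4e-08 and 6.92e-09). Between LX-A3928 and LX-A2003, Zhx2 differed by 0.00 with a 95% interval of -0.43 to 0.43 and Zbtb20 by -0.39 with an interval of -0.87 to 0.10. The part of either factor in the level of Afp was not tested.

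**Figure D4:**
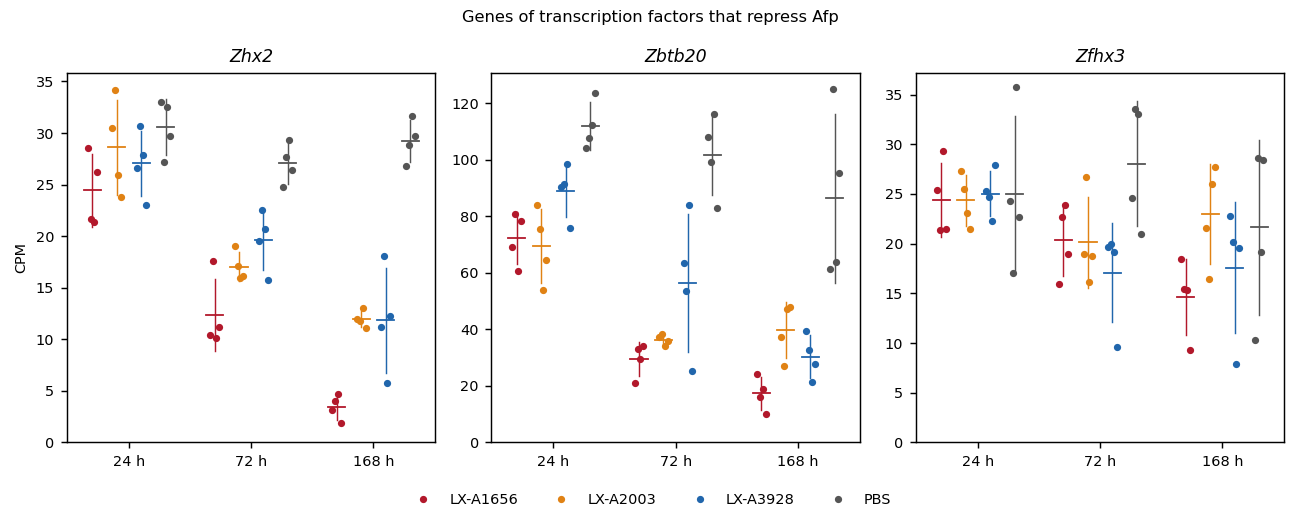
CPM of Zhx2, Zbtb20 and Zfhx3 in every library (vertical axis) at 24 h, 72 h and 168 h, with the mean of 4 as a horizontal line and its SD as a vertical line, for LX-A1656, LX-A2003, LX-A3928 and PBS from left to right. At 168 h Zhx2 stands at 1.85 to 4.67 CPM in LX-A1656 livers, against 26.8 to 31.6 CPM in PBS livers, while no comparison of Zfhx3 with PBS was called.

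Other genes of the same pathways were counted at 168 h from lists written by pathway, with earlier results of these data known. Beside them, 34.1%, 29.8% and 27.3% of all genes were called as higher and 29.7%, 25.3% and 20.7% as lower under LX-A1656, LX-A2003 and LX-A3928, and some list counts lie near those shares. Listed genes that are high only in treated livers may have passed the count filter through those livers. List counts may therefore be in part set by the filter. Of 15 tested regulators of fetal liver genes, 2 rose and 8 fell under LX-A1656, 1 rose and 6 fell under LX-A2003, and 1 rose and 7 fell under LX-A3928, with median log2 fold changes of -0.57, -0.33 and -0.52 beside 0.10, 0.04 and 0.08 over all genes. Besides Zhx2 and Zbtb20, Prox1, a factor of hepatoblast and hepatocyte identity, fell in each (-1.45, -0.92 and -0.83 under LX-A1656, LX-A2003 and LX-A3928). Cebpa, a factor of mature hepatocytes, fell by 2.44 under LX-A1656 and by 1.34 under LX-A2003. Of 14 tested imprinted genes other than the members, 10 rose and 1 fell under LX-A1656, 8 rose and 2 fell under LX-A2003, and 8 rose and 1 fell under LX-A3928, with medians of 0.94, 0.93 and 0.99. Slc38a4, an amino acid transporter, stood at 4.68, 2.92 and 2.86, Plagl1, a zinc finger factor, at 3.13, 3.28 and 2.79, and Peg3 at 1.95, 1.77 and 2.09, in the same order of oligonucleotides. Mest rose by 2.18 under LX-A2003 and by 2.40 under LX-A3928.

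Of the 12 genes of the IGF axis, which carries and receives Igf2, 3 rose and 6 fell under LX-A1656, 3 rose and 6 fell under LX-A2003, and 1 rose and 6 fell under LX-A3928, with medians of -0.38, -0.55 and -0.57. Igfbp1, a binding protein made by the liver, rose by 5.81, 4.32 and 2.83 on the log2 scale under LX-A1656, LX-A2003 and LX-A3928. Igfals, which holds IGFs in the circulating complex, fell by 5.32, 3.36 and 3.65, and Igfbp2 by 3.65, 1.90 and 2.48. Igf1, the IGF of postnatal life, fell by 2.39 under LX-A1656 and by 2.16 under LX-A2003. Of 17 genes of the Notch and Hippo pathways, 8 rose and 2 fell, 8 rose and 1 fell, and 6 rose and 2 fell under LX-A1656, LX-A2003 and LX-A3928, beside shares of all genes of 34.1%, 29.8% and 27.3% called as higher, with medians of 0.29, 0.77 and 0.17. Ctgf, a target of the Hippo effector YAP, rose by 3.54, 2.75 and 1.73, while the Notch ligand Dll4 fell by 1.55, 1.18 and 1.26. Of 9 tested glypican, prominin, SPINK and SOX relatives, 4 fell under LX-A1656, and 2 rose and 3 fell under each of LX-A2003 and LX-A3928, with medians of -0.56, -0.27 and -0.36. Sox5 fell by 4.34, 3.92 and 3.94 and Gpc4 by 1.99, 1.17 and 0.92. Of 13 cell cycle genes, 12 rose under LX-A1656 and 13 under each of LX-A2003 and LX-A3928, with medians of 2.46, 3.40 and 3.30. Ccnb2, a mitotic cyclin, rose by 3.05, 3.92 and 3.73. Of 18 genes of the mature hepatocyte, 4 rose and 9 fell, 13 fell, and 1 rose and 10 fell under LX-A1656, LX-A2003 and LX-A3928, with medians of -0.73, -1.05 and -0.56, and Hal, the first enzyme of histidine breakdown, fell by 3.57, 3.83 and 3.39.

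The genes whose patterns were most like each member were named by Pearson's r of mean log2 CPM over the 12 groups, as a description without a test. All points share 1 scaling and include the 168 h groups in which many genes rose. For Afp they were LOC108168807 (r = 0.994), Tceal5 (r = 0.993) and Krt20 (r = 0.993). For Spink1 they were Ptrf (r = 0.997), Plk1 (r = 0.988) and Tff3 (r = 0.988), and for H19 Clvs2 (r = 0.986), Prom1 (r = 0.98) and Zfp651 (r = 0.98). Prom1 was nearest to H19 (r = 0.98), Bpifb4 (r = 0.979) and Nbl1 (r = 0.978), so Prom1 and H19 stood in each other's lists. Cd24a was nearest to Rassf2 (r = 0.992), Mmp7 (r = 0.983) and Cttnbp2nl (r = 0.982), Gpc3 to Chst15 (r = 0.974), Syde1 (r = 0.971) and Mep1a (r = 0.971), and Epcam to Dst (r = 0.949), Stil (r = 0.949) and Prrg3 (r = 0.947). Igf2 was nearest to Tc2n (r = 0.954), Aff1 (r = 0.949) and Osbpl11 (r = 0.94) and Dlk1 to Rdh1 (r = 0.994), Mt4 (r = 0.988) and Gm30173 (r = 0.987). Sox9 had the lowest values, with Irgq (r = 0.89), Enthd2 (r = 0.845) and Nelfa (r = 0.841). Among the 4 libraries of a group the members did not share 1 order. At 168 h replicate 4 was highest of the LX-A1656 libraries for 5 of the 10 genes and replicate 1 for 4, and of the LX-A3928 libraries replicate 4 was highest for 6 and replicate 3 for 3. Of the LX-A2003 libraries replicates 1, 2 and 4 were each highest for 3.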

How the data were processed

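Liver RNA of 48 libraries was measured with the mouse version of the Ion AmpliSeq Transcriptome kit, which amplifies 1 fragment a gene, after bead homogenization in TriPure, per the labels' protocols. The authors deposited raw read counts per gene symbol, whole numbers for 23930 genes. No aligner, counter, genome build, strand setting or filter is given in the sources used here. A value reports on 1 amplicon, without molecular identifiers, so reads of 1 molecule may be counted more than once, and intervals on counts cover counting error alone.

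The 10 members and all gene lists were chosen with earlier results of these data known. Counts were fitted with edgeR 4.0.16 (R 4.3.3, limma 3.58.1; glmQLFit with robust estimation, glmQLFTest) on all 48 libraries with 12 group means and 36 residual degrees of freedom. Genes needed at least 10 counts at the median depth, a CPM of 0.938, in at least 4 libraries and at least 15 counts in all (filterByExpr), which left 12672 genes and at least 99.891% of the counts of each library. TMM factors ran from 0.794 to 1.31, and the biological coefficient of variation was 0.211. There were 26 comparisons, with p-values adjusted by Benjamini-Hochberg over all tested genes within each: 9 with PBS, 9 between oligonucleotides, 6 of effects between times and 2 between PBS times. Where a group held 3 counts or fewer, a ratio of counts over scaled depth with an exact 95% Clopper-Pearson interval replaces the fold change, and no fold is given where both groups did. No 2 replicates agreed within sampling noise (chi-square per degree of freedom 5.75 to 215).

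The genes named are the 10 members, from each list up to 4 called genes of smallest p at 168 h, for each member the 3 genes of highest correlation, and Scarb1, with Zhx2, Zbtb20 and Zfhx3 also followed over all groups. Alternatives were DESeq2 1.42.0 and its size factors (RLE), library totals alone, no count filter, only the libraries compared, a replicate block and leaving out each library. Replicate numbers did not pair the samples: in 0 of 20 comparisons did every same-numbered pair correlate above 0.1. The labels name no batch, so none could be separated. The fit was tested on simulated data. Summaries used Python 3.11.15, pandas 2.3.3, numpy 2.4.6 and scipy 1.17.1, and figures matplotlib 3.10.9, with log2(CPM + 0.1) for plotted levels.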

Additional observations from a re-analysis of the deposited data

Results flagged for a closer look

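Each member was checked in each group with more than 3 counts of it, 106 checks in all. In 14 of them, 1 library lay so far from the other 3 that its gap to the nearest passed Dixon's 95% critical value of 0.829 of the range. Chance gives about 1 in 20 for a single check, but these share the same 48 libraries and are not independent. Afp was at 1.19 CPM in LX-A3928 replicate 3 at 24 h. H19 was at 0.398 CPM in LX-A1656 replicate 3 at 24 h and at 0.645 CPM in LX-A2003 replicate 4 at 72 h. Igf2 was at 0.408 CPM in LX-A1656 replicate 3 at 72 h. Sox9 was high at 6.16 CPM in LX-A3928 replicate 2 at 24 h and low at 6.98 CPM in PBS replicate 4 at 72 h. Epcam was low at 3.47 CPM in LX-A3928 replicate 2 at 168 h, and Prom1 high at 1.19 CPM in LX-A3928 replicate 1 at 72 h. Cd24a was high at 4.14 CPM in LX-A2003 replicate 3 at 72 h and at 9.98 CPM in LX-A3928 replicate 3 at 168 h, and low at 2.04 CPM in PBS replicate 4 at 24 h. Spink1 was at 0.474 CPM in LX-A3928 replicate 1 at 24 h, at 0.725 CPM in LX-A3928 replicate 4 at 72 h and at 0.331 CPM in PBS replicate 2 at 72 h.

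The effect of an oligonucleotide against PBS differed between times in 43 tests of a member, by edgeR's test of that difference with adjustment over all genes. Values are the log2 effect at 168 h minus the earlier one. From 24 h under LX-A1656 these were Afp (10.27, adjusted p = 1.41e-17), Gpc3 (4.14, adjusted p = 2.51e-08), Prom1 (4.05, adjusted p = 1.23e-06), Cd24a (3.28, adjusted p = 6.5e-08) and Epcam (3.01, adjusted p = 8.35e-08). Groups of 3 counts or fewer leave no usable size for H19 (adjusted p = 1.71e-09), Spink1 (adjusted p = 3.12e-05) and Dlk1 (adjusted p = 0.0013). From 24 h under LX-A2003 they were Afp (6.77, adjusted p = 2.02e-12), Prom1 (3.32, adjusted p = 4.68e-05), Epcam (2.56, adjusted p = 3.62e-06), Gpc3 (1.94, adjusted p = 0.00318) and Cd24a (1.35, adjusted p = 0.0156), and without a size H19 (adjusted p = 5.46e-07) and Spink1 (adjusted p = 7.63e-06). From 24 h under LX-A3928 they were Spink1 (9.05, adjusted p = 3.97e-05), Afp (4.89, adjusted p = 7.84e-09), Epcam (2.24, adjusted p = 4.37e-05), Prom1 (1.76, adjusted p = 0.0342) and Sox9 (1.20, adjusted p = 0.00581), and without a size H19 (adjusted p = 0.00108). The size for Spink1 is uncertain, since the LX-A3928 group at 24 h held 6 counts, all in replicate 1. It ran from 8.57 to 12.64 in fits that left out 1 library.

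From 72 h under LX-A1656 the differences were Afp (6.94, adjusted p = 1.9e-12), Gpc3 (4.95, adjusted p = 5.14e-10), Spink1 (4.42, adjusted p = 0.023), Prom1 (4.08, adjusted p = 3.92e-06), Igf2 (4.01, adjusted p = 0.0119), Cd24a (2.86, adjusted p = 2.73e-06), Epcam (1.54, adjusted p = 0.0043) and Sox9 (-1.33, adjusted p = 0.00213), and without a size H19 (adjusted p = 1.06e-11) and Dlk1 (adjusted p = 0.0318). From 72 h under LX-A2003 they were Spink1 (6.64, adjusted p = 0.00199), Afp (5.88, adjusted p = 2.97e-10), Gpc3 (3.54, adjusted p = 1.62e-06), Prom1 (2.51, adjusted p = 0.00206), Epcam (1.38, adjusted p = 0.0116) and Cd24a (1.19, adjusted p = 0.0431), and without a size H19 (adjusted p = 4.72e-07). From 72 h under LX-A3928 they were Spink1 (7.80, adjusted p = 0.000992), Afp (4.28, adjusted p = 6.32e-07), Gpc3 (2.04, adjusted p = 0.00487) and Epcam (1.67, adjusted p = 0.00373), and without a size H19 (adjusted p = 0.000183). Igf2 and Dlk1 passed the count filter only through the LX-A1656 libraries at 168 h, so their differences under LX-A1656 follow from how they came to be tested and support nothing. H19 and Prom1 passed it only through treated livers at 168 h, and Spink1 only through those and the LX-A1656 livers at 72 h. Upward differences of these genes are in part set by the filter. The labels do not say whether the times share a dosing history. The Prom1 difference under LX-A3928 from 24 h kept its call in 8 of 16 fits that left out 1 library, with adjusted p up to 0.0758 without LX-A3928 replicate 4 at 24 h, and the Cd24a difference under LX-A2003 from 72 h in 6 of 16, with adjusted p up to 0.118 without PBS replicate 2 at 168 h. Single libraries ended other calls: Cd24a under LX-A2003 from 24 h without PBS replicate 2 at 168 h (adjusted p = 0.0511), and under LX-A1656 from 72 h Igf2 without PBS replicate 3 at 72 h (adjusted p = 0.057), Dlk1 without PBS replicate 4 at 72 h (adjusted p = 0.958) and Spink1 without PBS replicate 2 at 72 h (adjusted p = 0.147).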

How the results depend on the processing

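Of the counts of members called over 26 comparisons, those that left the range of 1.5 times the main value did so under DESeq2 for LX-A3928 against PBS at 72 h (2 members, against 1) and when only the libraries compared were fitted. That last setting, with fewer residual degrees of freedom, gave 4 in place of 8 for LX-A3928 against PBS at 168 h, 2 in place of 4 for LX-A3928 over LX-A2003 at 168 h, 1 in place of 0 for the same pair at 24 h, and 0 in place of 1 for PBS at 168 h over 24 h. In the same order, its shares of all genes called were 28.3%, 0.245%, 0.698% and 1.17%, against 48%, 8.1%, 0.15% and 1.03% in the main fit. For the DESeq2 count, 11.1% of all genes were called, against 9.8%. RLE factors, library totals and the fit without a count filter moved no count that far. These counts and those below are over all 10 members, Igf2 and Dlk1 included. Where LX-A1656 livers at 168 h are compared, calls of Igf2 and Dlk1 follow from how they came to be tested. They add nothing to the stability of a count. Among single genes under these settings, 705 values kept their direction and side of the threshold, 20 lost the call, 18 gained one and none reversed.

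Leaving out 1 library at a time gave 0, 1 and 1 members called against PBS at 24 h, 4 to 6, 1 to 2 and 1 to 2 at 72 h, and 10, 7 to 8 and 5 to 8 at 168 h, for LX-A1656, LX-A2003 and LX-A3928. For LX-A2003 over LX-A1656, LX-A3928 over LX-A1656 and LX-A3928 over LX-A2003 the ranges were 0, 1 and 0 at 24 h, 3 to 4, 3 to 4 and 0 to 1 at 72 h and 6 to 8, 7 to 8 and 4 to 5 at 168 h. Effects at 168 h minus 24 h ranged over 8 to 9, 6 to 8 and 5 to 7, effects at 168 h minus 72 h over 9 to 10, 6 to 7 and 5 to 6, and the PBS times over 0 and 0 to 1. Shares of all genes called are not given for these fits. The count of 5 for LX-A3928 at 168 h came without PBS replicate 3, and the count was 6 without LX-A3928 replicate 3. Over single genes, 1299 such values kept their call, 68 lost it, 28 gained one and 5 reversed. All 5 were Prom1 for LX-A3928 over LX-A1656 at 72 h, which was -0.02 in the full fit and ran from -1.46 to 0.27, with the reversed values at 0.26, 0.11, 0.18, 0.19 and 0.27, and the cause was not tested.

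With the replicate number as a block, Epcam was called for LX-A3928 over LX-A1656 at 168 h (adjusted p = 0.0482) and Cd24a was lost for the LX-A2003 effect at 168 h minus 72 h (adjusted p = 0.0519), and the block changed no other call of a member. Same-numbered samples correlated at -0.658 to 0.435.

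Library totals in place of TMM factors raised the median log2 fold change of all genes at 168 h by 0.47, 0.42 and 0.30 for LX-A1656, LX-A2003 and LX-A3928. Of all genes called, 6469 of 8772, 5865 of 7550 and 5144 of 6602 were then higher, against 4326 of 8092, 3775 of 6987 and 3464 of 6087 with TMM. Of members, that scaling ended the Sox9 calls at 168 h and the Gpc3 call under LX-A1656 at 72 h (-0.75, adjusted p = 0.136). Fits of only the libraries compared called 803, 754 and 1435 of all genes at 24 h, against 363, 265 and 413, 2509 for LX-A2003 at 72 h, against 1524, and 3208 for LX-A3928 at 168 h, against 6087. Depth limits Igf2, Dlk1, H19 and Spink1 in PBS livers and at 24 h, where 3 counts over a group stand for 0.0502 to 0.0911 CPM.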
